A study of Mus musculus with 6 samples.

Results

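Fatty acid oxidation and PPAR genes were followed in intestinal organoids treated with DM-aKG and in control organoids. The set holds 38 genes of the 24956 in the deposited table, chosen by name from the pathways with earlier results of these data known. It has 16 genes of the mitochondrial route, 6 of the peroxisome, 8 other targets of PPAR receptors, 3 acyl-CoA synthetases and 5 receptors and coactivators. All 38 were found by gene symbol. RNA-seq was done on 3 DM-aKG and 3 control cultures of intestinal organoids, closed epithelial structures grown in culture, all of the genotype Apc Min. Apc Min is a nonsense allele of Apc, a restrainer of Wnt signalling, and mice that carry it develop intestinal tumours. DM-aKG is a dimethyl ester of α-ketoglutarate that enters cells. The sources used here give no dose, no time, no vehicle and no origin of the replicates (separate mice or a shared line). If the cultures share a line, the p-values below measure only the spread between these cultures, which may be technical. The title of the series asks how α-ketoglutarate bears on Wnt signalling and differentiation.

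Fatty acids are activated to acyl-CoA by synthetases, passed into mitochondria by the carnitine shuttle, and shortened there in a repeating spiral of dehydrogenation, hydration, a second oxidation and thiolysis. Peroxisomes run a parallel spiral for very long and branched chains. The nuclear receptors PPARα, PPARδ and PPARγ bind fatty acids and switch on many genes of both routes. In the intestine PPARα and PPARδ are known to drive fatty acid oxidation in absorptive and crypt cells.

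The values are RPKM (reads scaled to gene length and to sequencing depth). They summed to 358636 to 363467 in DM-aKG libraries and 369553 to 374975 in controls. The depth, estimated from values of the shortest RNA genes, was such that a gene of 1 kb at 1 RPKM held 32.7 to 34.3 reads. Of 10852 genes that averaged at least 1 RPKM, 6033 (55.6%) passed limma at an adjusted p under 0.05, with 3354 (30.9%) higher and 2679 (24.7%) lower in DM-aKG. Centring each library on its median turned this split to 2790 higher and 3340 lower. DM-aKG replicate 1 lay closer to the controls than replicates 2 and 3 in 65.5% of the called genes and in 19 of the 25 called members. All 8 listed markers of intestinal epithelium were expressed, with 5 higher and 2 lower, and summed to 3667 to 4575 RPKM in DM-aKG and 2849 to 2896 RPKM in control. Of 8 adipocyte markers 6 stayed under 0.05 RPKM in every library, Adipoq and Plin1 among them. The summed level of that list was 13.7 to 18.6 RPKM in DM-aKG and 6.44 to 7.59 RPKM in control, nearly all of it Cidec, which is also a PPAR target. The 9 fibroblast and muscle markers summed to at most 0.12 RPKM in DM-aKG and 0.07 RPKM in control, and the 7 endothelial ones to at most 0.52 RPKM in DM-aKG and 0.29 RPKM in control. The 9 immune markers summed to 5.15 to 6.26 RPKM in DM-aKG and 3.24 to 3.46 RPKM in control. Ptprc was at 0 RPKM in each DM-aKG library and at most 0.01 RPKM in control. Of the 2 immune markers tested, Cd14 was higher and Cd68 did not pass. Cd14 averaged 2.75 RPKM in DM-aKG and 1.47 RPKM in control (limma, adjusted p = 2.03e-04). Below the filter, Itgam averaged 1.04 RPKM in DM-aKG and 0.577 RPKM in control, and Lyz2 0.173 and 0.447 RPKM. Among cell types of the epithelium, 10 enterocyte markers summed to 1658 to 1716 RPKM in DM-aKG and 1638 to 1915 RPKM in control, with 4 higher and 2 lower. The 7 Paneth cell markers summed to 716.6 to 1695 RPKM in DM-aKG and 2234 to 2919 RPKM in control, with 6 lower. The part of these shifts in the results below was not tested.

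Among the members, 19 rose, 6 fell and 13 did not pass the test. These 25 calls are 65.8% of the members, against 55.6% of all tested genes, so the share called lay near the background. Their median log2 fold change was 0.14, and that of all tested genes was 0.02. Most changes were small: 17 of the 25 called members changed by less than 0.5 on the log2 scale. Only Vnn1, Angptl4 and Pdk4 (3 members) changed by 1 or more on the log2 scale, all upwards, as did 2.68% of all tested genes in the same direction. The groups did not overlap in 27 members (71.1%), against 64.2% of all tested genes. All 38 members passed the filter on low values, but Pdk4 did so only through the DM-aKG libraries, so that its difference was a condition of being tested. In bulk RNA a change in the share of a cell type and a change in RNA per cell cannot be told apart.

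**Figure D1:**
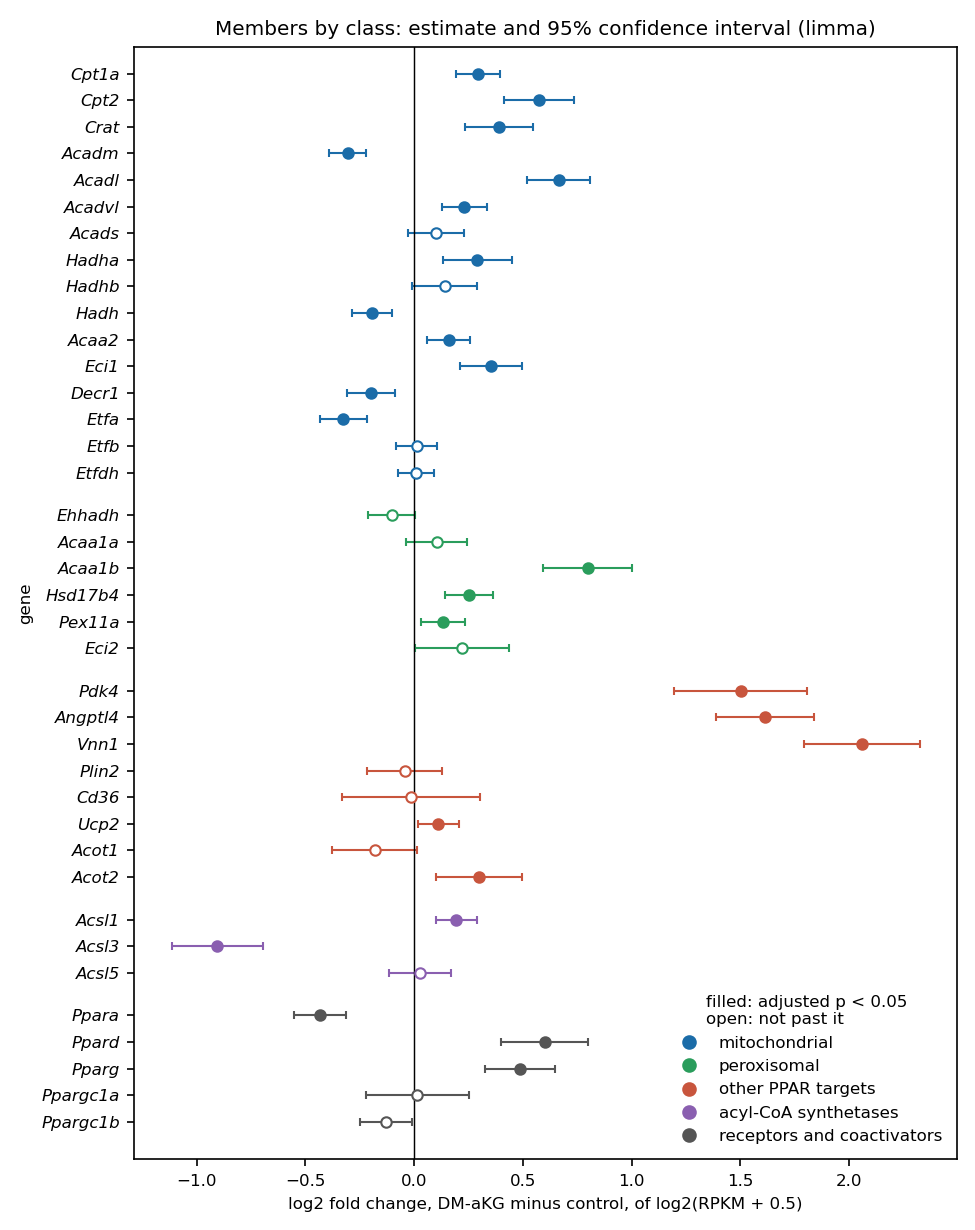
Estimated log2 fold change (DM-aKG minus control, horizontal axis) and its 95% confidence interval for the 38 members, grouped by class on the vertical axis. Filled points passed limma at an adjusted p under 0.05: Vnn1, Angptl4 and Pdk4 stand apart on the right, Acsl3 on the left.

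The 3 genes of the carnitine system all rose, as did 30.9% of all tested genes. Cpt1a, the transferase of the outer mitochondrial membrane that sets the rate of entry, had 24.38, 26.38 and 24.96 RPKM in DM-aKG, against 20.66, 20.12 and 20.68 RPKM in control. Every DM-aKG library was above every control (log2 fold change 0.29 ± 0.04, SE; limma, adjusted p = 0.00104). Cpt2, the transferase of the inner membrane that returns the acyl group to CoA, had 37.10, 43.31 and 43.92 RPKM in DM-aKG and 28.22, 26.46 and 28.22 RPKM in control. It rose by 0.57 ± 0.07 (limma, adjusted p = 3.78e-04), and the ratio of Cpt2 to Cpt1a was 1.64 ± 0.119 in DM-aKG and 1.35 ± 0.0290 in control (SD, n = 3 each, as throughout), without overlap. Replicate 1 had the lowest Cpt2 of the DM-aKG libraries. Crat, which moves short acyl groups between carnitine and CoA, averaged 10.3 ± 0.547 RPKM in DM-aKG and 7.77 ± 0.599 RPKM in control, a rise of 0.39 ± 0.07 on the log2 scale (limma, adjusted p = 0.00206).

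Inside the spiral the members moved both ways. Of the 10 enzymes of the mitochondrial matrix and inner membrane, 5 rose, 3 fell and 2 did not pass the test. The 4 acyl-CoA dehydrogenases, which take the first pair of electrons from chains of different length, went apart. Acadl (chromosome 1, 66830839 to 66863277, GRCm38), which acts on long chains in the mouse, had 109.97, 128.34 and 121.56 RPKM in DM-aKG, against 78.47, 73.09 and 74.62 RPKM in control. It had the largest rise of the mitochondrial members (0.66 ± 0.06; limma, adjusted p = 1.24e-04). Acadvl, which takes very long chains, had 57.99, 63.23 and 59.90 RPKM in DM-aKG and 50.32, 52.24 and 51.47 RPKM in control, a smaller rise without overlap (0.23 ± 0.04; limma, adjusted p = 0.00329). Acadm, the medium-chain dehydrogenase, went the other way, with 35.20, 34.80 and 34.47 RPKM in DM-aKG and 42.37, 43.90 and 43.24 RPKM in control. On the log2 scale it fell by 0.31 (SE 0.04; limma, adjusted p = 3.68e-04), and its 3 DM-aKG libraries lay within 1 RPKM of each other. Acads, the short-chain enzyme, averaged 25.8 ± 1.33 RPKM in DM-aKG and 24.0 ± 1.19 RPKM in control with overlapping groups (95% interval of the log2 fold change -0.03 to 0.23; limma, adjusted p = 0.154). The ratio of Acadl to Acadm was 3.12, 3.69 and 3.53 in DM-aKG and 1.85, 1.67 and 1.73 in control.

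The later steps of the spiral also moved both ways. Hadha and Hadhb encode the α and β chains of the trifunctional protein, which runs the last 3 steps on long chains. They lie head to head on chromosome 5, and their RefSeq promoter windows (250 bases before to 50 after the annotated start) overlap. The Hadhb window is shown because both genes share it: chr5:30155003-30155302 of GRCm38.p6, plus strand, 5′ to 3′, with capitals on the 228 bases that also belong to the Hadha window.
Hadhb promoter: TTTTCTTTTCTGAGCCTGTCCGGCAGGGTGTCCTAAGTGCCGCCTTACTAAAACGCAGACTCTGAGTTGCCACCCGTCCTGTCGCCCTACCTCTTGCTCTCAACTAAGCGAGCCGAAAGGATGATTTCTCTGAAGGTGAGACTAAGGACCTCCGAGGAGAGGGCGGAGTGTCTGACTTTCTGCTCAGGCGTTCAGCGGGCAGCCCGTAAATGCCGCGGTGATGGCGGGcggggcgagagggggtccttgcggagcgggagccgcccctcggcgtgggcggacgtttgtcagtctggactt
Despite the shared window the pair did not keep a fixed ratio. Hadha had 75.00, 89.68 and 87.57 RPKM in DM-aKG and 67.74, 70.22 and 67.47 RPKM in control, and it rose by 0.29 ± 0.07 (limma, adjusted p = 0.00831). Hadhb had 66.23, 77.10 and 76.87 RPKM in DM-aKG and 65.32, 68.45 and 65.43 RPKM in control, with DM-aKG replicate 1 inside the control range (0.14 ± 0.06; limma, adjusted p = 0.0952). Without that library Hadhb was higher by 0.21 (limma, adjusted p = 0.00160). The ratio of Hadha to Hadhb was 1.14 ± 0.0162 in DM-aKG and 1.03 ± 0.00560 in control, and the groups did not overlap. Hadh, the dehydrogenase of short and medium hydroxyacyl chains, had 178.36, 185.71 and 184.94 RPKM in DM-aKG, against 205.10, 209.98 and 213.33 RPKM in control. On the log2 scale it fell by 0.19 (SE 0.04; limma, adjusted p = 0.00450), but remained the most abundant mitochondrial member in every library.

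Acaa2, the thiolase that ends the spiral on medium chains, averaged 112 ± 3.95 RPKM in DM-aKG and 99.98 ± 2.30 RPKM in control (0.16 ± 0.04; limma, adjusted p = 0.0151). Acaa2 lost this call on leaving out control replicate 1 (limma, adjusted p = 0.0579), DM-aKG replicate 2 (0.0588) or replicate 3 (0.0514), and with median centring (0.0770). The auxiliary enzymes for unsaturated chains moved in opposite directions. Eci1, an enoyl-CoA isomerase, rose, with 42.61, 47.57 and 46.84 RPKM in DM-aKG and 33.12, 36.58 and 37.32 RPKM in control (0.35 ± 0.06; limma, adjusted p = 0.00222). Decr1, the dienoyl-CoA reductase, had 18.81, 18.16 and 17.04 RPKM in DM-aKG and 20.91, 20.83 and 20.46 RPKM in control, and it fell by 0.20 (SE 0.05; limma, adjusted p = 0.00833).

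Of the 3 genes that carry electrons from the acyl-CoA dehydrogenases to the respiratory chain, only Etfa passed the test. That is 33.3%, against 55.6% of all tested genes. Etfa and Etfb encode the α and β chains of electron transfer flavoprotein, which accepts those electrons. Etfa had 91.96, 87.82 and 83.34 RPKM in DM-aKG and 112.74, 109.28 and 107.93 RPKM in control, a fall (-0.33 ± 0.05; limma, adjusted p = 9.08e-04), the largest fall of the mitochondrial members. Etfb averaged 71.4 ± 1.57 RPKM in DM-aKG and 70.9 ± 2.01 RPKM in control (95% interval of the log2 fold change -0.08 to 0.10; limma, adjusted p = 0.833). Etfdh, the membrane oxidoreductase that passes the electrons to ubiquinone, averaged 36.1 ± 0.385 RPKM in DM-aKG and 35.9 ± 0.581 RPKM in control (interval -0.08 to 0.09; limma, adjusted p = 0.856). The ratio of Etfa to Etfb was 1.29, 1.20 and 1.19 in DM-aKG and 1.64, 1.51 and 1.51 in control. Over all 16 mitochondrial members 8 rose, 4 fell and 4 did not pass the test, and the median log2 fold change was 0.15. The directions did not divide cleanly by chain length: of the long-chain members Cpt1a, Cpt2, Acadl, Acadvl and Hadha rose and Hadhb did not pass, and of those for medium and short chains Acadm and Hadh fell, Acaa2 and Crat rose and Acads did not pass.

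**Figure D2:**
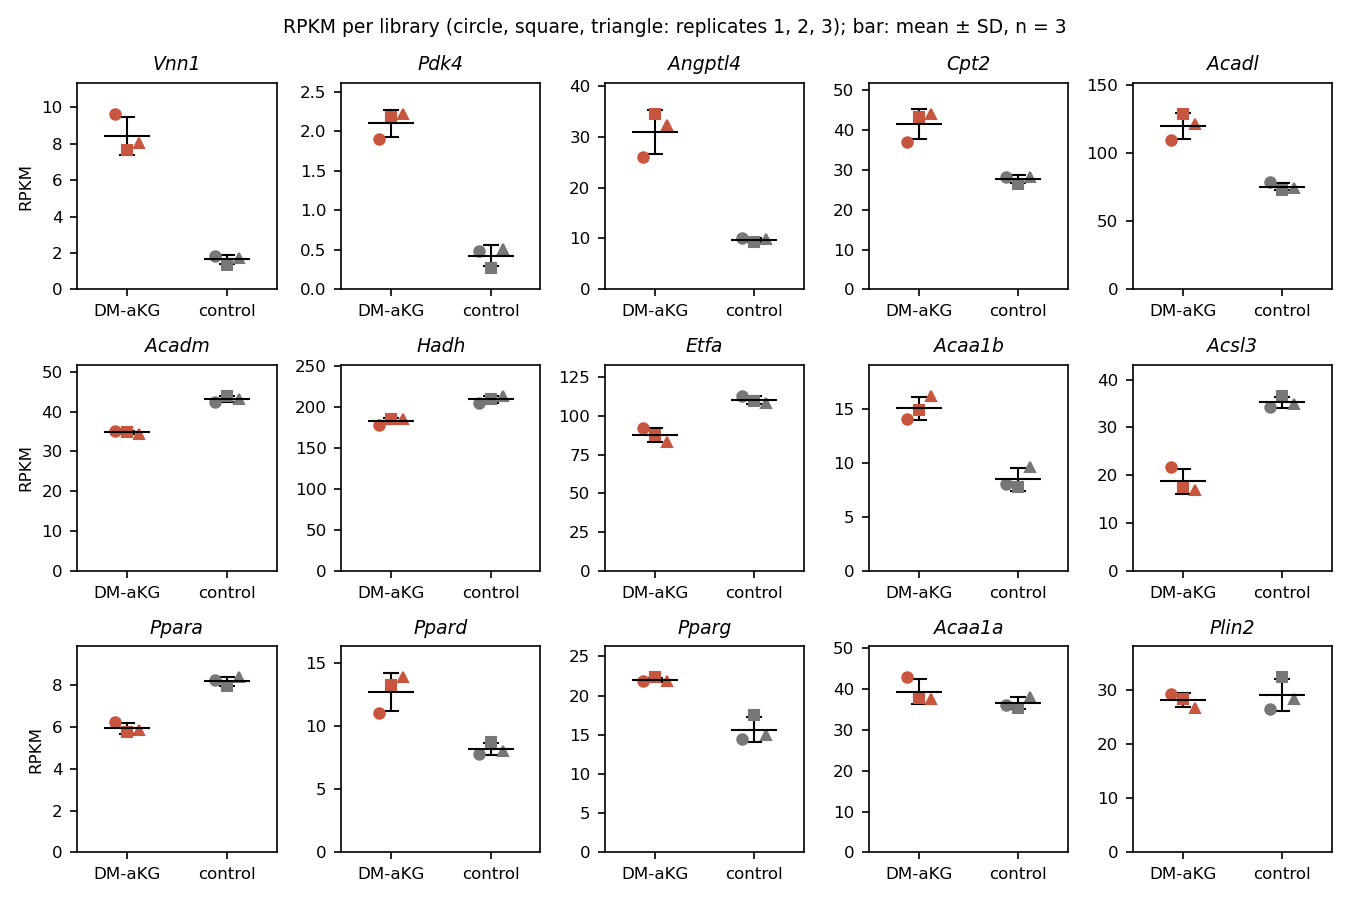
RPKM (vertical axis, from 0, on its own scale in each panel) of 15 members in the 3 DM-aKG libraries (left) and the 3 controls (right); circles, squares and triangles are replicates 1, 2 and 3, and bars give mean ± SD. Acadl and Cpt2 are higher and Acadm, Hadh and Etfa lower in each DM-aKG library than in each control, while Acaa1a and Plin2 overlap.

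The peroxisomal members rose or did not pass the test. Of 6, 3 rose, 0 fell and 3 did not pass, with a median log2 fold change of 0.18. The share called, 3 of 6, lay near the 55.6% over all tested genes (30.9% higher and 24.7% lower). The median log2 fold change of all tested genes was 0.02. Ehhadh was called lower when the libraries were centred on their medians (log2 fold change -0.15; limma, adjusted p = 0.0207). Acaa1b, a thiolase of the peroxisomal spiral, had 14.09, 14.90 and 16.22 RPKM in DM-aKG and 8.05, 7.74 and 9.66 RPKM in control. It had the largest rise of the peroxisomal members, to 1.78 times the control mean (0.80 ± 0.09; limma, adjusted p = 2.57e-04). Its near-identical neighbour Acaa1a had 42.76, 37.71 and 37.49 RPKM in DM-aKG and 36.07, 35.33 and 38.10 RPKM in control, with overlapping groups (0.10 ± 0.06; limma, adjusted p = 0.177). The coding sequences of both are 1275 bases long and 96.5% identical, and the genes lie 182582 bases apart on chromosome 9 (Acaa1b at 119148023 to 119157093, Acaa1a at 119339676 to 119350299, GRCm38). How reads that match both genes were assigned is unknown, so the level of each is uncertain. The ratio of Acaa1b to Acaa1a was 0.330, 0.395 and 0.433 in DM-aKG and 0.223, 0.219 and 0.254 in control.

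The multifunctional enzymes of the peroxisome, which hydrate and oxidise the chain, differed. Hsd17b4, which handles branched and very long chains, had 47.14, 51.73 and 50.65 RPKM in DM-aKG and 42.49, 40.71 and 42.06 RPKM in control, and it rose by 0.25 ± 0.05 (limma, adjusted p = 0.00282). Ehhadh, its counterpart for straight chains and a classical PPARα target in mouse liver, had 28.35, 26.96 and 27.46 RPKM in DM-aKG and 31.12, 28.38 and 29.60 RPKM in control. Every DM-aKG library lay below every control, by a margin of 0.03 RPKM, and the test was not passed (-0.10 ± 0.05; limma, adjusted p = 0.0927); without DM-aKG replicate 1 Ehhadh was called lower (adjusted p = 0.0498). Pex11a, which elongates peroxisomes before they divide, averaged 12.8 ± 0.357 RPKM in DM-aKG and 11.6 ± 0.224 RPKM in control (0.13 ± 0.04; limma, adjusted p = 0.0306). That call was lost when any library other than DM-aKG replicate 1 was left out (limma, adjusted p = 0.0594, 0.0850 and 0.0784 without control replicates 1, 2 and 3, and 0.0928 and 0.101 without DM-aKG replicates 2 and 3), with median centring (0.128), with quantile normalization (0.148) and with the replicate block (0.0599). Eci2, an isomerase found in peroxisomes and mitochondria, had 47.17, 60.58 and 57.28 RPKM in DM-aKG and 44.68, 50.38 and 45.78 RPKM in control. DM-aKG replicate 1 stood inside the control range, and Eci2 did not pass (0.22 ± 0.09; limma, adjusted p = 0.0763); it was called higher without that library (0.33; limma, adjusted p = 0.00183) and with the replicate block (adjusted p = 0.0241).

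The steepest changes were in 3 PPAR targets outside the oxidation spiral. Of the 8 members of this class 5 rose, 0 fell and 3 did not pass the test, with a median log2 fold change of 0.20. The share called, 62.5%, lay near the 55.6% over all tested genes (30.9% higher and 24.7% lower). Under quantile normalization Acot1 was called lower (log2 fold change -0.27, limma, adjusted p = 0.0256). Vnn1 (chromosome 10, 23894688 to 23905343), a pantetheinase that breaks down pantetheine to cysteamine and pantothenate, had 9.60, 7.65 and 8.04 RPKM in DM-aKG, against 1.86, 1.35 and 1.73 RPKM in control. The DM-aKG mean was 5.12 times the control mean (log2 fold change 2.06 ± 0.11; limma, adjusted p = 1.28e-05). Angptl4 (chromosome 17, 33773750 to 33781830), a secreted inhibitor of lipoprotein lipase, had 26.00, 34.33 and 32.32 RPKM in DM-aKG and 10.01, 9.21 and 9.87 RPKM in control, or 3.18 times the control mean (1.61 ± 0.10; limma, adjusted p = 1.81e-05). Its lowest DM-aKG library, replicate 1, was still well above the highest control. Angptl4 is also known as a target of hypoxia-inducible factor. In the list of 10 hypoxia-inducible genes 1 was higher and 7 lower, and their summed level was 665.2 to 842.7 RPKM in DM-aKG and 878.2 to 1111 RPKM in control. Ankrd37 of that list was highest in control replicate 2, 49.54 RPKM against 27.03 and 28.72 in the other controls. Angptl4 was lowest in that library, but its controls lay close together (9.70 ± 0.427 RPKM). Nothing is read from the order of 1 library. The part of hypoxia in these values was not tested.

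Pdk4, the kinase that holds back pyruvate dehydrogenase when fat is burned, was a low transcript. It had 1.90, 2.18 and 2.21 RPKM in DM-aKG and 0.49, 0.27 and 0.51 RPKM in control. On its longest transcript of 3484 bases this stands for about 227 to 252 reads per DM-aKG library and 32 to 58 per control. The DM-aKG mean was 4.95 times the control mean, and the log2 fold change of 1.50 ± 0.13 (limma, adjusted p = 9.24e-05) understates this, since 0.5 RPKM was added before the logarithm. With 0.1 added it was 2.10. None of the other kinases of pyruvate dehydrogenase was called higher. Pdk1, also a hypoxia target, averaged 40.6 ± 0.706 RPKM in DM-aKG and 60.5 ± 3.47 RPKM in control and fell by 0.57 on the log2 scale, Pdk3 fell by 0.32, and Pdk2 did not pass the test (-0.16).

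The other 5 targets moved little. Ucp2, a carrier of the inner mitochondrial membrane, averaged 302 ± 4.83 RPKM in DM-aKG and 280 ± 6.27 RPKM in control, the highest level of any member (0.11 ± 0.04; limma, adjusted p = 0.0479). That call was lost without any single library except DM-aKG replicate 1 (limma, adjusted p = 0.154, 0.0989 and 0.0949 without control replicates 1, 2 and 3, and 0.0792 and 0.116 without DM-aKG replicates 2 and 3), and also with median centring (0.233), no filter (0.0706), no variance trend (0.0623) and the replicate block (0.0937). Plin2, which coats lipid droplets, had 29.19, 28.31 and 26.64 RPKM in DM-aKG and 26.44, 32.22 and 28.33 RPKM in control, with control replicate 2 the highest (95% interval of the log2 fold change -0.22 to 0.13; limma, adjusted p = 0.639). Cd36, a fatty acid transporter of the cell surface, was near the lower limit of the test, with 1.51, 1.08 and 1.22 RPKM in DM-aKG and 1.48, 1.02 and 1.37 RPKM in control (interval -0.33 to 0.30; limma, adjusted p = 0.936).

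The thioesterase genes Acot1 (cytosol) and Acot2 (mitochondria), which release fatty acids from CoA, lie 15616 bases apart on chromosome 12 and are 95.5% identical over their aligned coding bases, so their levels are uncertain too. Acot2 had 20.73, 16.50 and 20.48 RPKM in DM-aKG and 15.84, 15.75 and 14.84 RPKM in control (0.30 ± 0.09; limma, adjusted p = 0.0197), a call lost without control replicate 3 (0.0719) or DM-aKG replicate 3 (0.0687). Acot1 had 57.54, 59.00 and 57.04 RPKM in DM-aKG and 57.62, 74.60 and 65.88 RPKM in control (-0.18 ± 0.08; limma, adjusted p = 0.102). Its controls spread widely and the lowest of them lay inside the DM-aKG range; without control replicate 1 it was called lower (-0.27; limma, adjusted p = 0.0126).

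The promoter windows of the members were searched for the motif that PPAR receptors bind together with RXR, a direct repeat of AGGTCA with 1 base between, on both strands and with up to 2 mismatches at the 12 fixed bases. RefSeq held windows on GRCm38.p6 for 31 of the 38 members; Angptl4, Vnn1, Crat, Decr1, Hsd17b4, Acaa2 and Ppargc1b had none in the table. A match was found in 1266 of all 32817 windows (3.86%) and in 8.82% of the 34 windows of members. The latter belong to 3 members, Plin2, Cd36 and Etfa. These stretches are printed because they are the only member windows that hold the motif, with the match in capitals and each on the gene's strand, the minus strand: chr4:86670252-86670304 for Plin2, chr5:17835927-17835979 for Cd36 and chr9:55512288-55512340 for Etfa. The matches start at -225, -63 and -77 from the annotated start and all read as the reverse complement of the motif.
Plin2 promoter: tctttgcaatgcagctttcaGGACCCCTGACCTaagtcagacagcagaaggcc
Cd36 promoter: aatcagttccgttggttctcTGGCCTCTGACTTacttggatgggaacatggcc
Etfa promoter: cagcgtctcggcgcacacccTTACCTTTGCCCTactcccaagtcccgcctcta
Of these 3 genes Etfa was called lower in DM-aKG, and Plin2 and Cd36 did not pass the test. Pdk4, the steepest riser with a window in the table, has no stretch with fewer than 4 mismatches there; the closest is in capitals in its window, chr6:5496229-5496528, minus strand.
Pdk4 promoter: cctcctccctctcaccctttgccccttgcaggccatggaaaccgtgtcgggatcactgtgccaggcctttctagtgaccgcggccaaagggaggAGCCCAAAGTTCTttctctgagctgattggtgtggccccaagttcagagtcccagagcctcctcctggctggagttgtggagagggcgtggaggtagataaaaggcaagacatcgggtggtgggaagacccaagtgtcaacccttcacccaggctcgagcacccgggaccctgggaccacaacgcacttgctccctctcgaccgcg
A match is a run of letters, not a measured binding site, and motifs outside these windows were not searched. Vnn1 and Angptl4 had no window. With 0.5 RPKM added, both rose more steeply than Pdk4 on the log2 scale. By the ratio of means, Pdk4 (4.95) lay above Angptl4 (3.18) and below Vnn1 (5.12). The part of receptor binding in the changes was not tested.

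The acyl-CoA synthetases, which activate fatty acids for oxidation or for storage, diverged. Acsl3 (chromosome 1, 78657825 to 78707743), which sits on the endoplasmic reticulum and lipid droplets, had 21.76, 17.46 and 16.87 RPKM in DM-aKG, against 34.19, 36.56 and 34.92 RPKM in control. On the log2 scale it fell by 0.90 (SE 0.09; limma, adjusted p = 1.70e-04), to 0.531 of the control mean, the largest fall of the 38 members. Acsl1, the isoform most tied to oxidation in muscle and fat, had 27.71, 26.10 and 26.49 RPKM in DM-aKG and 23.77, 23.08 and 23.19 RPKM in control, a rise of 0.19 ± 0.04 (limma, adjusted p = 0.00519). Acsl5, an isoform abundant in intestine, had 236.05, 272.45 and 254.89 RPKM in DM-aKG and 261.92, 241.56 and 245.26 RPKM in control, with overlapping groups (95% interval of the log2 fold change -0.12 to 0.17; limma, adjusted p = 0.738). Acsl5 held 84.8% ± 1.87 of the summed RPKM of the 3 genes in DM-aKG and 81.0% ± 0.848 in control. Acsl3 held 6.27% ± 1.17 in DM-aKG and 11.4% ± 0.727 in control, changing places with Acsl1 as the least abundant.

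The PPAR receptors themselves moved in different directions. Ppara (chromosome 15, 85734983 to 85802819), the receptor of fasting and fatty acid oxidation, had 6.24, 5.75 and 5.86 RPKM in DM-aKG, against 8.26, 7.95 and 8.38 RPKM in control. It fell (-0.43 ± 0.05; limma, adjusted p = 3.74e-04). Ppard, a receptor expressed along the crypt, had 11.05, 13.23 and 13.86 RPKM in DM-aKG and 7.81, 8.75 and 8.01 RPKM in control, a rise of 0.60 ± 0.09 (limma, adjusted p = 8.95e-04). Pparg, best known from adipocytes and also expressed in colon epithelium, had 21.90, 22.30 and 21.85 RPKM in DM-aKG and 14.50, 17.48 and 14.94 RPKM in control, a rise of 0.48 ± 0.07 (limma, adjusted p = 8.43e-04). No library of a group overlapped the other group for any of the 3. Per length, Pparg was the most abundant receptor in every library. In control Ppara and Ppard had similar levels, with a ratio of Ppard to Ppara of 0.946, 1.10 and 0.956, whereas in DM-aKG that ratio was 1.77, 2.30 and 2.37. Ppara thus held 14.6% ± 1.11 of the summed RPKM of the 3 receptors in DM-aKG and 25.7% ± 2.10 in control.

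**Figure D3:**
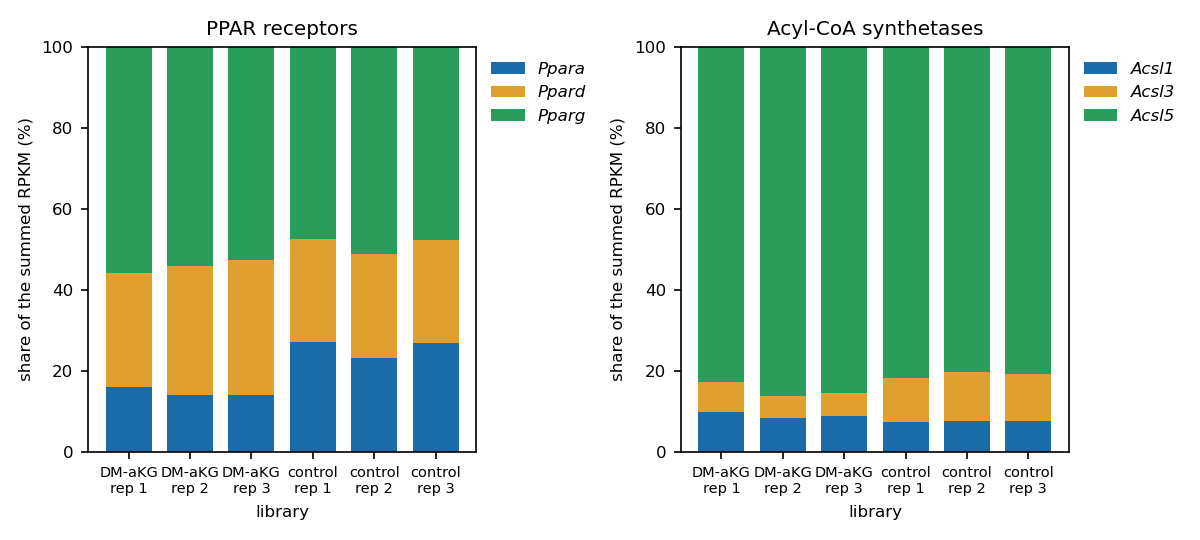
Share of the summed RPKM (vertical axis, %) held by each of the 3 PPAR receptor genes (left) and by each of the 3 acyl-CoA synthetase genes (right) in every library, DM-aKG libraries on the left of each panel. Ppara takes 13.9% to 15.9% in DM-aKG and 23.3% to 27.0% in control, and Acsl3 5.53% to 7.62% in DM-aKG and 10.7% to 12.1% in control.

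The coactivator genes among the members, Ppargc1a and Ppargc1b, did not pass the test. Ppargc1a, which drives mitochondrial biogenesis, was low, with 1.29, 1.45 and 1.59 RPKM in DM-aKG and 1.34, 1.61 and 1.32 RPKM in control (95% interval of the log2 fold change -0.22 to 0.25; limma, adjusted p = 0.908). Ppargc1b, its relative, had 4.57, 4.78 and 4.53 RPKM in DM-aKG and 5.10, 5.02 and 5.21 RPKM in control. All 3 DM-aKG libraries were below the controls, but the adjusted p was 0.0630 (limma; -0.13 ± 0.05). It was called lower with median centring (limma, adjusted p = 0.0218), with quantile normalization (0.0453) and with no variance trend (0.0400).

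A further 140 genes of the same and related pathways, listed by pathway, gave the setting. Of these 107 were tested, and 40 were higher, 26 lower and 41 not past the test, which is 61.7% called, near the 55.6% (30.9% higher and 24.7% lower) over all tested genes. Among 22 tested genes of peroxisomal oxidation outside the members, 14 rose (63.6%), 1 fell (4.55%) and 7 did not pass, with a median log2 fold change of 0.24. Acox2, an oxidase that opens the peroxisomal spiral on branched chains and bile acid intermediates, averaged 37.9 ± 4.57 RPKM in DM-aKG and 16.9 ± 1.04 RPKM in control (1.14 ± 0.09; limma, adjusted p = 4.94e-05). The peroxisomal thioesterase gene Acot8 and the polyamine oxidase gene Paox rose by 0.58 and 0.56, whereas the reductase gene Pecr fell by 0.43. Of the 15 peroxisome assembly genes (Pex genes) 4 rose, 3 fell and 8 did not pass.

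Of the 20 tested mitochondrial genes outside the members 3 rose (15.0%), 8 fell (40.0%) and 9 did not pass, with a median log2 fold change of -0.09. Across all tested genes 30.9% rose and 24.7% fell. This list is not confined to fatty acid oxidation, since it also holds genes for short branched chains and propionyl-CoA, such as Acadsb and Pccb. Its counts therefore do not describe the oxidation route alone. The carnitine carrier gene Slc25a20 rose by 0.15, the hydratase gene Echs1 by 0.16 and Mlycd, which removes the malonyl-CoA that restrains Cpt1a, by 0.26. Acadsb, the dehydrogenase of short branched chains, averaged 4.83 ± 1.30 RPKM in DM-aKG and 9.77 ± 0.0971 RPKM in control, a fall (-0.97 ± 0.15; limma, adjusted p = 0.00111). Pccb, a chain of propionyl-CoA carboxylase, averaged 23.4 ± 1.32 RPKM in DM-aKG and 34.3 ± 1.13 RPKM in control and fell by 0.55, and Acat1, the acetoacetyl-CoA thiolase, fell by 0.59. Pcca, Mcee, Mut, Ivd and Acad10 were the other genes that fell. All 5 tested ketone body genes were called, 4 higher and 1 lower, against 55.6% of all tested genes called. The acetate synthetase gene Acss1, kept in that list, was the gene that fell, by 0.96 on the log2 scale.

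**Figure D4:**
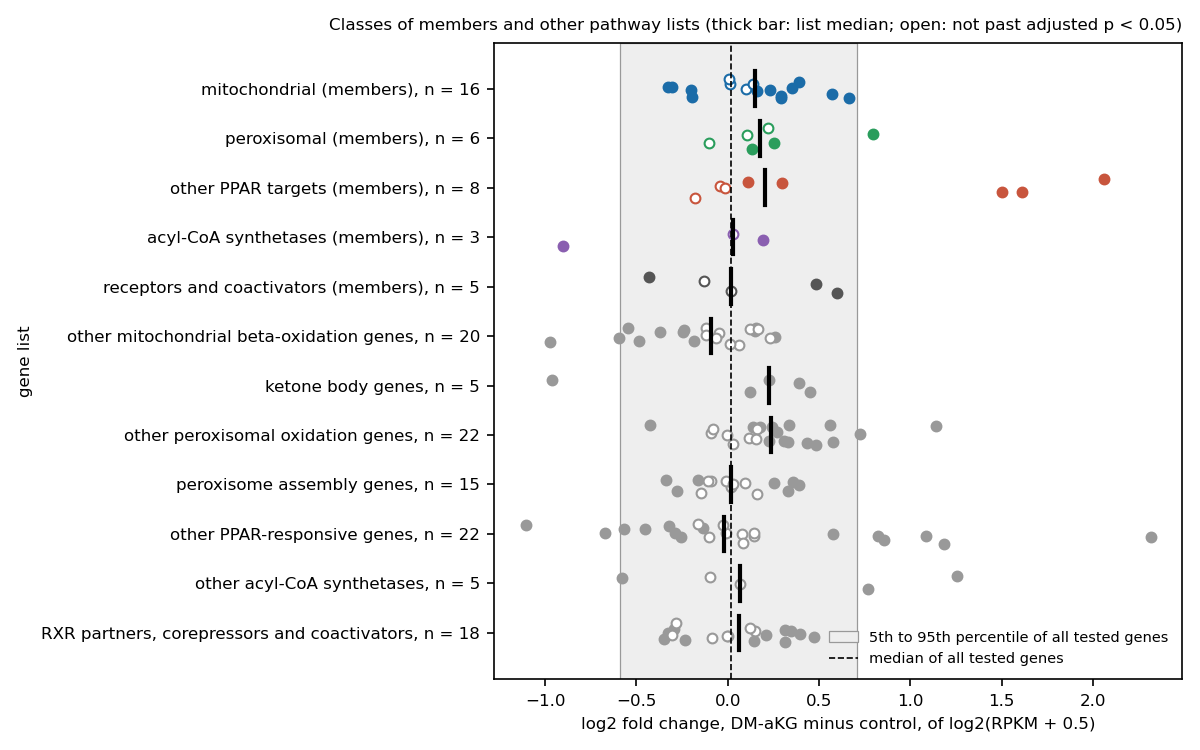
Log2 fold change (DM-aKG minus control, horizontal axis) of each tested gene in the 5 classes of members (coloured) and in 7 further lists of pathway genes (grey); filled points passed limma, thick bars mark list medians, and the grey band spans the 5th to 95th percentile of all tested genes, -0.59 to 0.71. Among the members Vnn1, Angptl4, Pdk4 and Acaa1b lie right of the band, and Acsl3 lies left of it.

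Other genes that respond to PPAR receptors in mouse tissues went both ways: of 22 tested, 6 rose (27.3%), 8 fell (36.4%) and 8 did not pass. Their median log2 fold change was -0.02. The shares over all tested genes were 30.9% higher and 24.7% lower. Classical targets of mouse liver such as Cyp4a10, Cyp4a14 and Fgf21 averaged below 1 RPKM and were not tested. Me1, the malic enzyme gene that is also an NRF2 target, had the largest rise, 57.4 ± 3.54 RPKM in DM-aKG and 11.1 ± 0.599 RPKM in control. The lipid droplet gene Cidec averaged 16.5 ± 2.57 RPKM in DM-aKG and 6.93 ± 0.569 RPKM in control (1.19 ± 0.11; limma, adjusted p = 1.30e-04), and its relative Cidea 1.85 ± 0.365 RPKM in DM-aKG and 0.603 ± 0.153 RPKM in control, having passed the filter only through DM-aKG. Creb3l3 (0.82), the lipase inhibitor gene G0s2 (0.86) and the fatty acid binding protein gene Fabp1 (0.58) also rose on the log2 scale. The desaturase gene Scd1 averaged 155 ± 1.97 RPKM in DM-aKG and 335 ± 13.6 RPKM in control and fell by 1.11, the largest fall of the list. Hilpda, a hypoxia target on lipid droplets, fell by 0.67. Among the other synthetase genes Acsf2 (0.77) and Acsm3 (1.26) rose and Acsl4 fell by 0.58; Acsm3 passed the filter only through DM-aKG, where replicate 1 had 4.26 RPKM and replicates 2 and 3 had 1.81 and 2.08. Of 18 partners of the receptors, 7 rose (38.9%), 4 fell (22.2%) and 7 did not pass. The corepressor gene Ncor1 rose by 0.35, and Hnf4a, an intestinal regulator of lipid genes, fell by 0.32. The coactivator genes Ncoa2 (0.14), Ncoa3 (0.40), Med1 (0.21) and Ep300 (0.31) rose on the log2 scale. Ncoa1, Crebbp and Pprc1 did not pass.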

How the data were processed

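The authors deposited RPKM with 2 decimals for 24956 genes in 6 libraries, named by gene symbol. The submitters' processing notes name Partek, HISAT2 2.0.4 and CASAVA 1.8, and the mouse build mm10; the sources used here do not give each tool's role, the annotation, the strand or how multi-mapping reads were counted. RPKM removes depth, which was estimated from short miRNA and snoRNA genes (up to 150 bases) by putting as many values as possible at 1 read; 80.0% to 91.7% of the other values up to 5 reads came out whole within 0.05 reads. Intervals cover the spread between cultures.

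Values were analysed as log2(RPKM + 0.5) for the 10852 genes with a mean of at least 1 RPKM over the 6 libraries; 14104 lay below. DM-aKG was compared with control by limma 3.58.1 in R 4.3.3 (variance trend, two-sided, no replicate term), with Benjamini-Hochberg adjustment over all tested genes and calls at 0.05. Lists were described by counts and medians, with no test. Members and lists were chosen with earlier results of these data known. Values in every library are given for members called with a change of at least 0.5 on the log2 scale, for receptors and coactivators and for the extremes of each class, and for other members where the text turns on them; further pathway genes are the 20 of smallest p among those called with such a change, apart from a result not reported here, and others chosen after their values were seen. Gene positions come from GENCODE M21 on GRCm38 (mm10), promoter sequences from RefSeq. Coding identity used the longest reading frame of GENCODE transcripts. Alternatives, 17 in all, covered the pseudocount, filter, scaling, variance model, array weights, replicate block and omitted libraries. Tables and figures were made with matplotlib 3.10.9, pandas 2.3.3 and numpy 2.4.6 under Python 3.11.15.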

Additional observations from a re-analysis of the deposited data

How the results depend on the processing

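Of the 38 members, 28 kept their call or lack of it, and their direction where called, under all 17 alternatives; they include 21 of the 25 called members. The 10 others were Acaa2, Pex11a, Ucp2 and Acot2, which lost calls, and Acads, Hadhb, Ehhadh, Eci2, Acot1 and Ppargc1b, which gained them; the cause was not tested. Leaving out DM-aKG replicate 1 made Acads higher (limma, adjusted p = 0.0352). The counts over all members stayed within 15 to 22 higher and 6 to 9 lower, and 22 were higher and 7 lower without control replicate 2 and DM-aKG replicate 1 together. Peroxisomal members called lower went from 0 to 1 (Ehhadh) with median centring, quantile normalization, array weights, without DM-aKG replicate 1, and without that library and control replicate 2 together; leaving out single libraries gave 0 to 1. Of the other PPAR targets 1 (Acot1) was called lower with quantile normalization and with array weights, and 0 to 1 without single libraries, while 3 to 5 were called higher without single libraries. The median log2 fold change of the mitochondrial members was 0.0937 with quantile normalization and 0.22 without both named libraries. That of the peroxisomal members was 0.13 with median centring, 0.12 with quantile normalization and 0.22 with an equal sum per library, and 0.14 to 0.22 without single libraries. With the replicate number as a block 18 members were higher and 6 lower, against 19 and 6 without it. The deviations of same-numbered libraries from their group means had r = -0.08, -0.11 and 0.01. With 3 libraries per group such values cannot exclude a pairing, so whether the numbers pair the cultures is unknown.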
